A study of Mus musculus with 14 samples.

Results

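The insulin-like growth factor genes were taken as 10 members, namely the ligands Igf1 and Igf2, the noncoding RNA H19 that lies beside Igf2, the receptors Igf1r and Igf2r, and the binding proteins Igfbp2, Igfbp3, Igfbp4, Igfbp5 and Igfbp6. They were matched by gene symbol, and all 10 were found among the 24016 transcripts of the deposited table. All 10 averaged at least 1 FPKM over the 8 libraries, as did 14312 transcripts in all, which are called expressed here. RNA was sequenced from C2C12 cells, an established mouse myoblast line, transfected with a control siRNA (siCtrl) or a pool of siRNAs against Klf5 (siKlf5). Cells were moved from growth medium with fetal bovine serum to differentiation medium with horse serum, in which they fuse into myotubes, and were sampled on days 0, 1, 2 and 3 in this medium (day 0 being before it). 1 library was made for each siRNA and day, so no single value has a replicate error. The study asked whether Klf5, a zinc finger transcription factor, acts in muscle differentiation.

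Insulin-like growth factors are secreted peptides that bind the receptor tyrosine kinase Igf1r and, through PI3 kinase and Akt, promote growth, survival and differentiation of muscle cells. Igf2r binds Igf2 and carries it to lysosomes, and the Igfbp proteins hold the ligands outside the cell and release them when cleaved. Cultured myoblasts are known to make their own Igf2 as they differentiate, and Igf2 and H19 are neighbouring imprinted genes that share enhancers.

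The deposited FPKM values were scaled to a matrix total of 1e+07 per library, and so exceed ordinary FPKM. The reads behind each value were recovered from its smallest step, and the libraries held 7850497 to 20301506 of these recovered reads, the deepest being siCtrl day 2. Up to 34.2 of them fell on each base of a transcript, more than the authors' limit of 3 reads per position would leave, so a recovered read is not the same unit as the read this limit applies to. In that library the 200 most abundant transcripts were lower than on day 1 by a median log2 ratio of -0.67, while the median over all expressed transcripts was 0.17. Klf5 itself was lower in siKlf5 on every day, with 35.1 against 223.8 FPKM on day 0 and 211.4 against 933.1 FPKM on day 3. All 9 muscle markers were detected in every library, with Myod1 at 398.0 to 556.8 FPKM, while Myh3, the embryonic myosin heavy chain (96.4 to 2790 FPKM), and the creatine kinase Ckm (19.9 to 1096 FPKM) were lowest on day 0. Between the siRNAs the muscle markers did not all go the same way. Myog was lower in siKlf5 on every day (1386 against 2293 FPKM on day 3). Acta1 was higher on every day (4351 against 4150 FPKM on day 3), and the other muscle markers changed sides between days. None of 9 markers of other cell types was above 10.3 FPKM. In RNA from whole cultures, fewer cells of a type and less RNA per cell cannot be told apart.

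On the FPKM scale, which is per length of transcript, the mean level over the 8 libraries was highest for H19 (4923 FPKM). Igfbp5 (2425 FPKM) and Igfbp2 (1877 FPKM) came next, and with H19 they lay above the 99.3rd percentile of expressed transcripts. Igfbp6 (429.4 FPKM), Igf2 (324.7 FPKM), Igf2r (170.2 FPKM) and Igfbp4 (149.2 FPKM) followed. Igf1r (55.3 FPKM), Igfbp3 (28.4 FPKM) and Igf1 (4.27 FPKM) were lowest. The ranges over the 8 libraries of neighbours in this order overlapped, except those of Igfbp2 and Igfbp6.

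**Figure D1:**
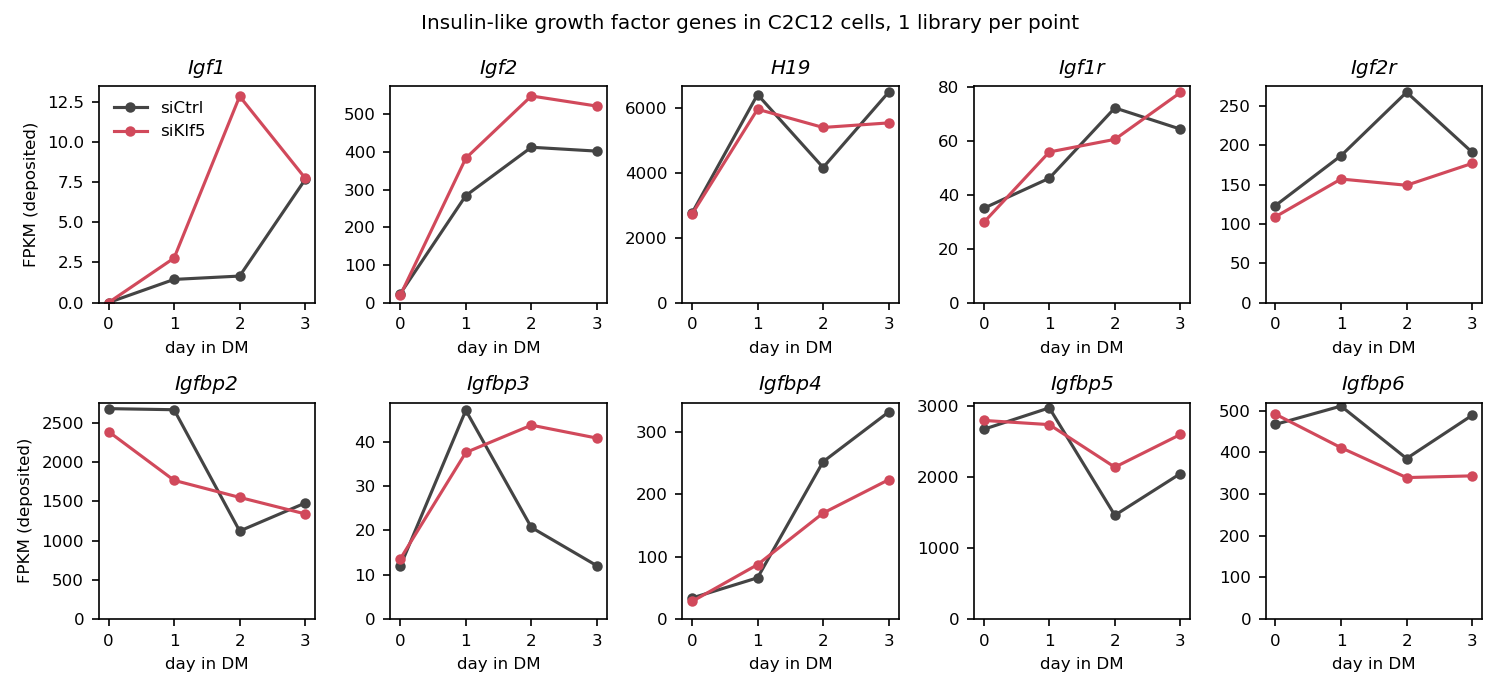
Deposited FPKM of the 10 members (1 panel each, each with its own vertical axis from 0) against the day in differentiation medium (DM), with siCtrl in grey and siKlf5 in red, 1 library per point. Igf2 and Igfbp4 rise from day 0 in both series, Igfbp2 ends lower than it began, and Igfbp3 is higher in siKlf5 on days 2 and 3.

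Which members changed as the cells differentiated was asked by comparing day 3 with day 0. Of the members with reads on day 0, Igf2 and Igfbp4 rose most, H19, Igf1r and Igf2r rose as well, and Igfbp2 fell. Igf1 went from 0 reads on day 0 to only 17 in siCtrl and 15 in siKlf5 on day 3. It is among the members counted as higher below, although it reached a mean of 1 FPKM only through the later days. In limma, fitted on log2(FPKM + 0.1) of all expressed transcripts with day and siRNA as terms, 6 of the 10 members were called higher on day 3 and 1 lower at an adjusted p under 0.05 (Benjamini-Hochberg). Over all 14312 transcripts 12.8% were called higher and 17.6% lower. Within siCtrl alone 6 members were higher past 1.5-fold (22.5% of all transcripts) and 1 lower (23.5%), and within siKlf5 7 were higher (21.7%) and 1 lower (23.6%). The median log2 difference of the members was 0.96, beside -0.09 over all transcripts tested. Each day had 2 libraries, 1 per siRNA, which stand in for replicates. The p-values rest on the spread left over all 8 libraries after day and siRNA, which limma moderates with that of other transcripts. They do not rest on replicate libraries, and a knockdown effect on the time course counts as spread. The split over all transcripts, 1831 higher and 2516 lower, became 2151 and 1878 with upper-quartile scaling and 2175 and 1826 with median-ratio centring, which shift the median of all transcripts from -0.09 to 0.01. The counts of calls also rest on the outer days: without 1 of the libraries of day 0 or day 3, 2 or 3 members were called, and these always included Igf2 and Igfbp4. Without the filter on low values Igf2 and Igfbp4 were the 2 members called.

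The ligand Igf2 (NM_001122737) is counted on chromosome 7 of mm9, 149836673 to 149843386, minus strand, over 4 exons in the closest GENCODE transcript. In siCtrl it was at 23.4, 284.2, 412.9 and 402.6 FPKM on days 0, 1, 2 and 3, and in siKlf5 at 18.97, 383.7, 549.2 and 522.2 FPKM. On the log2 scale most of the rise came between days 0 and 1, and on each later day the siKlf5 library was the higher one. Igf2 went from rank 10036 to rank 1333 among all transcripts in siCtrl and from 10420 to 887 in siKlf5. The log2 difference between day 3 and day 0 was 4.44 (SE 0.19, limma adjusted p = 4.5e-06), and it was called in all 13 alternatives tried, with adjusted p from 2.0e-06 to 0.0098. It was 4.10 in siCtrl (95% interval 3.56 to 4.70) and 4.78 in siKlf5 (4.15 to 5.49). These intervals, like all those below, are exact Clopper-Pearson intervals on reads in units of 6, and they cover counting error only.

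The promoter nearest the counted start of Igf2 is shown because, of the members that had reads on day 0, this gene rose most, and that of Igfbp4 because it came second among them. That of Igfbp3 is shown because it is the member that differed most between the siRNAs on day 3. Sequences are from RefSeq (250 bases before to 50 after a start, GRCm38.p6), and each was found once in mm9, whose coordinates are given. Capitals mark the letters CACCC, a short form of the GC-rich element bound by Krüppel-like factors, or their reverse complement GGGTG. Of all 32851 promoters in the RefSeq table, 57.5% hold CACCC on either strand, 35.7% GGGCGG and 72.3% the E-box letters CANNTG.
Igf2, chr7:149843352-149843651, minus strand: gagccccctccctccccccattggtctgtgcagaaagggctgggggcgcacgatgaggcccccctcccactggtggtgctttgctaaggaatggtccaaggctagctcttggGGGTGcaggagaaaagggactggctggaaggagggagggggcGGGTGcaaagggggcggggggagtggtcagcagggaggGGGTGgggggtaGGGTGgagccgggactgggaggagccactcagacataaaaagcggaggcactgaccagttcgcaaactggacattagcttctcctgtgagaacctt
Igfbp4, chr11:98902308-98902607, plus strand: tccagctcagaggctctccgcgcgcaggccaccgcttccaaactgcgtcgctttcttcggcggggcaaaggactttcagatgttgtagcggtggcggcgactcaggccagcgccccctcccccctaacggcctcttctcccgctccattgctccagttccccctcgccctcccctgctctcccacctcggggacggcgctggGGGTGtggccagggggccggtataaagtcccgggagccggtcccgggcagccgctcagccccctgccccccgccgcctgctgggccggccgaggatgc
Igfbp3, chr11:7113877-7114176, minus strand: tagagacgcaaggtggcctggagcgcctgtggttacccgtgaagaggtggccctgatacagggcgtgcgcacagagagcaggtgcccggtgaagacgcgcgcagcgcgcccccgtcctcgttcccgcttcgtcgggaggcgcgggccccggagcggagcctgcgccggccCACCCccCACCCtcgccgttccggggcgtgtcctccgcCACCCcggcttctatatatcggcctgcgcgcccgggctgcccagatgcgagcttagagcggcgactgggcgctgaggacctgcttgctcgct
The Igf2 window holds CACCC 4 times, GGGCGG 2 times and no E-box. The Igfbp4 window holds CACCC 1 time and CANNTG 1 time, and the Igfbp3 window CACCC 3 times and CANNTG 2 times, both without GGGCGG. Matching letters are a description and not binding sites. Igf2 has 3 other promoters in the table, up to 9335 bases from the counted start, and the table does not tell which start the reads came from. Promoter entries were found for 9 of the 10 members, and none for H19.

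Igf1 (NM_184052, chromosome 10, 87323856 to 87378515, plus strand), the ligand that circulates from the liver and is also made by muscle, was barely detected. It was listed at 0 on day 0 with both siRNAs, where 3 reads would have given 1.41 FPKM in siCtrl and 1.55 in siKlf5. In siCtrl it had 2, 6 and 17 reads on days 1, 2 and 3 (1.44, 1.65 and 7.67 FPKM), and in siKlf5 4, 27 and 15 reads (2.77, 12.8 and 7.75 FPKM). It was called higher on day 3 than on day 0 (limma adjusted p = 0.0069). With another pseudocount, other scalings or no filter the limma adjusted p was 0.0068 to 0.13. Igf1 reached a mean of 1 FPKM only through the later days, so this p-value is no separate support for a rise. Within each siRNA the counting interval of day 3 against day 0 included 0. No fold is given because day 0 was at 0. On day 3 Igf2 was 52.5 times as high as Igf1 in siCtrl and 67.4 times as high in siKlf5.

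H19 (NR_001592, chromosome 7, 149761437 to 149764051, minus strand) is a noncoding RNA whose exon holds the hairpin of miR-675, 72.6 kb from Igf2 on the same strand. It was at 2753, 6404, 4158 and 6479 FPKM in siCtrl and at 2718, 5952, 5391 and 5531 FPKM in siKlf5 on days 0, 1, 2 and 3. These values are scaled to 2614 bases, the genomic span of H19, while its closest GENCODE transcript has 2286 bases of exon. Ratios of H19 to other transcripts rest on this length. From day 1 H19 was the second most abundant transcript of every library, after the ribosomal precursor Rn45s. Its log2 difference between day 3 and day 0 was 1.13 (SE 0.18, limma adjusted p = 0.0024), and without 1 of the day 0 or day 3 libraries the adjusted p was up to 0.10. The dip in siCtrl on day 2 (log2 ratio to day 1 of -0.62) came in the deepest library, beside the lower values of other abundant transcripts there. The part of depth in this value was not tested.

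The hairpin of Mir675 (chromosome 7, 149762969 to 149763052) lies wholly within the H19 exon, and its row stood at 64.3% to 77.7% of the H19 value. These are reads of the long poly(A) RNA and not of mature miRNA. The mature miRNAs that H19 can give are shown with the seed, bases 2 to 8, in capitals (RefSeq, GRCm38.p6, chromosome 7, 142577112 to 142577133 and 142577078 to 142577099, minus strand).
miR-675-5p: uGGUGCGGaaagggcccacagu
miR-675-3p: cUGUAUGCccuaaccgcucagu
Their seeds differ from each other. Mir483, in an intron of Igf2, was listed at 0 in all 8 libraries. Because Igf2 rose far more than H19, the ratio of H19 to Igf2 went from 117 on day 0 to 22.5, 10.1 and 16.1 on days 1, 2 and 3 in siCtrl, and from 143 to 15.5, 9.82 and 10.6 in siKlf5.

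Igf1r (NM_010513, chromosome 7, 75097143 to 75378553, plus strand), the signalling receptor, was at 35.0, 46.2, 72.3 and 64.4 FPKM in siCtrl and at 29.7, 55.9, 60.6 and 78.0 FPKM in siKlf5 on days 0, 1, 2 and 3. It was lowest on day 0 with both siRNAs, and its log2 difference between day 3 and day 0 was 1.13 (SE 0.23, limma adjusted p = 0.0085, up to 0.11 without 1 library). Igf2r (NM_010515, chromosome 17, 12875272 to 12962572, minus strand), the clearance receptor, was at 123.4, 186.8, 267.6 and 191.2 FPKM in siCtrl and at 109.1, 157.2, 149.2 and 177.1 FPKM in siKlf5. Every siKlf5 value lay below the siCtrl value of its day, and the gap was widest on day 2. The siCtrl value of that day came from the deepest library, and the part of depth in the gap was not tested. The day 3 to day 0 difference of Igf2r was 0.66 on the log2 scale (SE 0.18, limma adjusted p = 0.029), and it was not called without any 1 library of days 0, 1 or 3. Per length, Igf2r was 2.27 to 4.05 times as high as Igf1r over the 8 libraries.

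Among the binding proteins, Igfbp2 and Igfbp5 were by far the most abundant. Igfbp2 (NM_008342, chromosome 1, 72871054 to 72899045, plus strand) was at 2685, 2670, 1123 and 1480 FPKM in siCtrl and at 2392, 1770, 1552 and 1341 FPKM in siKlf5 on days 0, 1, 2 and 3. It ended 1.81-fold lower than it began in siCtrl and 1.78-fold lower in siKlf5, a log2 difference of -0.85 (SE 0.22, limma adjusted p = 0.021). With upper-quartile scaling the adjusted p was 0.052, with median-ratio centring 0.060, and without 1 of the day 0 or day 3 libraries 0.18 to 0.21. Igfbp5 (NM_010518, chromosome 1, 72904639 to 72921439, minus strand), which lies 5.59 kb from Igfbp2 with the 2 genes pointing at each other, was at 2668, 2970, 1460 and 2046 FPKM in siCtrl and at 2793, 2734, 2136 and 2596 FPKM in siKlf5. It was not called, with a day 3 to day 0 difference of -0.24 (SE 0.17, limma adjusted p = 0.32), and in siKlf5 its log2 ratio of -0.11 became 0.02 with upper-quartile scaling. The lowest value of both genes was that of siCtrl day 2, the library in which abundant transcripts were low as a class.

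Igfbp4 (NM_010517, chromosome 11, 98902574 to 98913957, plus strand), a binding protein that inhibits Igf action until it is cleaved, was at 33.8, 66.3, 252.5 and 332.2 FPKM in siCtrl and at 28.2, 87.4, 170.1 and 223.6 FPKM in siKlf5 on days 0, 1, 2 and 3. It was higher on each day than on the day before with both siRNAs. From day 1 to day 2 its log2 ratio was 1.93 in siCtrl (95% interval 1.38 to 2.53) and 0.96 in siKlf5 (0.43 to 1.52). The siCtrl step enters the deepest library. Over all expressed transcripts the median of this step was 0.17 in siCtrl and 0.03 in siKlf5. The part of such a shift in the Igfbp4 ratios was not tested. The day 3 to day 0 difference was 3.14 (SE 0.24, limma adjusted p = 8.0e-05), and it was called in all 13 alternatives, with adjusted p up to 0.023.

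Igfbp3 (NM_008343, chromosome 11, 7106096 to 7113926, minus strand), the main carrier of Igf in blood, was at 11.9, 47.1, 20.7 and 12.0 FPKM in siCtrl and at 13.6, 37.6, 43.8 and 40.8 FPKM in siKlf5 on days 0, 1, 2 and 3. In siCtrl it was highest on day 1, whereas in siKlf5 it stayed near its day 1 value. Its day 3 to day 0 difference was not called (0.80, SE 0.50, limma adjusted p = 0.27), and it was 0.01 in siCtrl (95% interval -1.42 to 1.46) and 1.58 in siKlf5 (0.51 to 2.80). Igfbp6 (NM_008344, chromosome 15, 101974617 to 101979943, plus strand), which prefers Igf2 over Igf1, was at 466.7, 510.6, 384.9 and 488.6 FPKM in siCtrl and at 491.2, 410.8, 339.2 and 343.3 FPKM in siKlf5. It was not called between the days (-0.23, SE 0.14, limma adjusted p = 0.27).

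**Figure D2:**
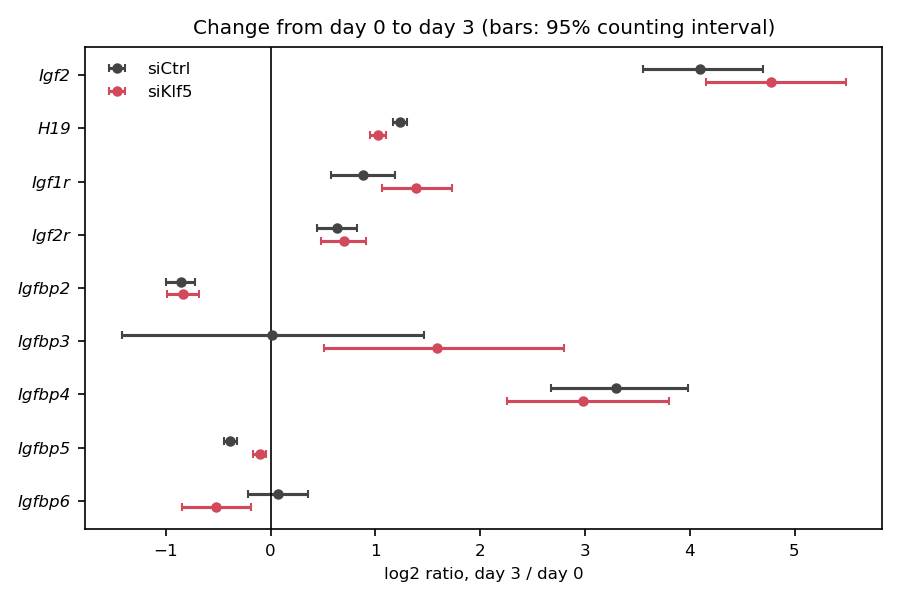
Log2 ratio of day 3 to day 0 for 9 members (Igf1 is left out because it was at 0 on day 0), with siCtrl in grey and siKlf5 in red and bars for the 95% counting interval of 1 library against 1. Igf2 and Igfbp4 stand far to the right with both siRNAs, Igfbp2 to the left, and Igfbp3 is near 0 in siCtrl and at 1.58 in siKlf5.

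The make-up of the binding protein transcripts shifted with the days. Igfbp2 and Igfbp5 together gave 91.3% of the summed FPKM of Igfbp2 to Igfbp6 in siCtrl and 90.7% in siKlf5 on day 0. On day 3 they gave 80.9% and 86.6%. Igfbp4 went from 0.576% to 7.62% of the sum in siCtrl and from 0.494% to 4.92% in siKlf5. The summed binding protein FPKM was 250 times the Igf2 value in siCtrl and 301 times in siKlf5 on day 0, and 10.8 and 8.70 times on day 3. Each of these values rests on 1 library.

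**Figure D3:**
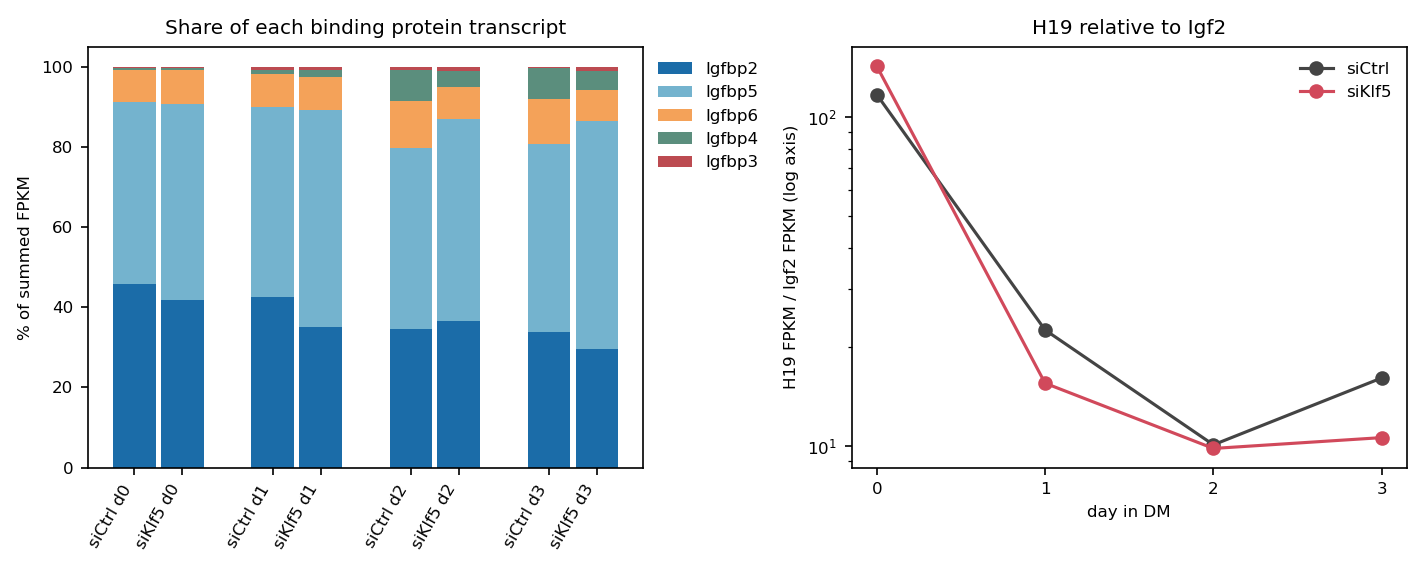
Left, stacked bars of the percent of summed FPKM of Igfbp2, Igfbp5, Igfbp6, Igfbp4 and Igfbp3 in each library. Right, FPKM of H19 divided by that of Igf2 on a log axis against the day in DM. The Igfbp4 share grows from under 1% to 7.62% in siCtrl and 4.92% in siKlf5, and the H19 to Igf2 ratio drops between days 0 and 1 with both siRNAs.

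The effect of Klf5 knockdown was compared on each day, with 1 library against 1 and hence no test. No member was past 1.5-fold on day 0, when 11.1% of expressed transcripts were lower and 9.22% higher past this cutoff in siKlf5. On day 1, 1 member was lower (background 11.0%) and 1 higher (16.4%), namely Igfbp2 and, on 2 and 4 reads, Igf1. On day 2, 1 was lower (13.0%) and 2 were higher (7.69%), namely Igf2r, Igfbp3 and Igf1. On day 3 none was lower (12.5%) and 1 was higher (10.7%), which was Igfbp3. At 0 to 2 of 10 members in each direction, these counts lay around the shares over all transcripts.

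Apart from Igf1, which had at most 27 reads in a library and a log2 ratio of 2.89 on day 2 with a 95% interval of -0.28 to 8.55, Igfbp3 had the largest differences past the cutoff. Its log2 ratio of siKlf5 to siCtrl was 0.19 on day 0 and -0.32 on day 1, with intervals that include 0. It was 1.08 on day 2 (95% interval 0.32 to 1.85) and 1.76 on day 3 (0.69 to 2.96), on 207 against 169 and 178 against 60 reads. The change of the siRNA difference per day, fitted as a line over the days, was 0.61 (SE 0.25), with an unadjusted p of 0.042 and a limma adjusted p of 1.00.

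Igf2 was lower in siKlf5 on day 0 by a log2 ratio of -0.30, on 125 against 170 reads, with an interval that includes 0. It was higher on the other days, by 0.43 on day 1 (95% interval 0.18 to 0.69), 0.41 on day 2 (0.26 to 0.56) and 0.38 on day 3 (0.20 to 0.55), each under 1.5-fold. Igf2r was lower by -0.84 on day 2 (-1.003 to -0.684), a 1.79-fold difference, and by -0.18, -0.25 and -0.11 on days 0, 1 and 3. Igf1r, by contrast, changed sides from day to day, with -0.24, 0.28, -0.25 and 0.28. The day 2 ratios are taken to the deepest library, siCtrl day 2, and the part of depth in them was not tested.

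Igfbp4 was lower in siKlf5 on both later days, by a log2 ratio of -0.57 on day 2 (95% interval -0.90 to -0.25) and -0.57 on day 3 (-0.89 to -0.26), just short of the 1.5-fold cutoff. Igfbp6 was lower on days 1, 2 and 3 and lowest on day 3, at -0.51 (-0.83 to -0.19). Igfbp2 was just past the cutoff on day 1, at -0.59 (-0.76 to -0.43), and Igfbp5 just short of it on day 2, at 0.55 (0.49 to 0.61). With upper-quartile scaling or median-ratio centring the latter was 0.60, past the cutoff, which made 4 members past it on day 2 in place of 3. On day 2 Igfbp2 was the other way, at 0.47, and H19 was at 0.37. The 200 most abundant transcripts had a median of 0.37 there. The part of such a shift in the values of Igfbp2, Igfbp5 and H19 was not tested. H19 was at -0.02, -0.11 and -0.23 on days 0, 1 and 3.

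**Figure D4:**
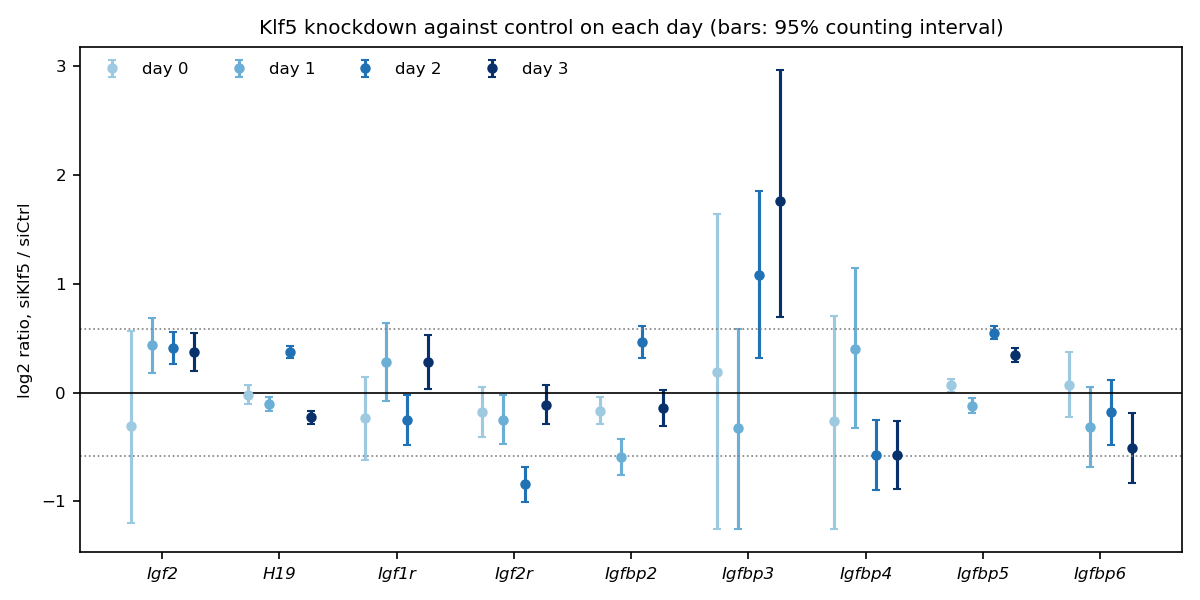
Log2 ratio of siKlf5 to siCtrl for 9 members on each day (light to dark blue for days 0 to 3), with bars for the 95% counting interval of 1 library against 1, a line at 0 and dotted lines at 1.5-fold. Igfbp2 on day 1, Igfbp3 on days 2 and 3 and Igf2r on day 2 lie outside the dotted lines, and Igfbp4 on days 2 and 3 lies just inside.

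Over the 4 days together, with the day as a term in limma, no member was called between siKlf5 and siCtrl. The 4 days stand in for replicates here, so a knockdown effect that differs between days counts as spread. A member that was not called may still differ on some days. The test called 9 transcripts of 14312, 0.00699% higher and 0.0559% lower, and 1374 had an unadjusted p under 0.05. Klf5 itself was called with a log2 difference of -1.94 (SE 0.20, limma adjusted p = 0.024), but with any 1 day left out no transcript was called. The member with the smallest p was Igf2r, at -0.34 (SE 0.13, unadjusted p = 0.030, limma adjusted p = 0.46), followed by Igfbp6 at -0.23 (SE 0.10, unadjusted p = 0.049, limma adjusted p = 0.52). The largest difference was that of Igf1, at 0.95 (SE 0.87, limma adjusted p = 0.76). Igfbp3 was at 0.67 (SE 0.36) and Igf2 at 0.23 (SE 0.13), with limma adjusted p of 0.58 and 0.62. Igfbp4 at -0.25 (SE 0.17), Igfbp5 at 0.21 (SE 0.12), Igfbp2 at -0.11 (SE 0.15), Igf1r at 0.02 (SE 0.17) and H19 at 0.01 (SE 0.12) were also not called, and in the last 3 the sign changed when 1 day was left out. The members' median was 0.01, as over all transcripts.

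The rest of the pathway was followed in 3 lists, of which 10 of 20 genes of the wider Igf axis, all 23 of receptor substrates and PI3 kinase to Akt signalling, and all 18 of mTOR and translation control were expressed. Between the siRNAs over the 4 days none of these 51 genes was called in limma, and their median log2 difference was -0.01. Between day 3 and day 0, 9 of the 51 were called higher and 6 lower, where 12.8% and 17.6% of all transcripts were, with a median of 0.03 beside -0.09 over all transcripts tested.

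Grb10, an imprinted adaptor that binds the insulin and Igf1 receptors and dampens their signal, was the list gene with the largest mean difference between the siRNAs. In siCtrl it was at 0.857, 1.97, 2.26 and 2.57 FPKM on days 0, 1, 2 and 3 (8, 12, 36 and 25 reads), and in siKlf5 at 1.53, 8.85, 32.1 and 42.9 FPKM (13, 56, 296 and 365 reads). Its siKlf5 value was the higher one on every day, and the log2 ratio was larger on each later day. It was 0.77 on day 0 and 2.11 on day 1, where the counting intervals included 0. The log2 ratio was 3.77 on day 2 (95% interval 2.60 to 5.34) and 4.01 on day 3 (2.66 to 5.94). Over the 4 days it was 2.67 (SE 0.67, unadjusted p = 0.0043, limma adjusted p = 0.30), and the change of the difference per day was 1.14 (SE 0.51, limma adjusted p = 1.00), so neither was called. From day 0 to day 3 the log2 ratio of Grb10 was 1.48 in siCtrl (95% interval -1.47 to 6.10, which includes 0). In siKlf5 it was 4.72 (2.96 to 7.71). Over both siRNAs Grb10 was called higher on day 3 (3.10, SE 0.95, limma adjusted p = 0.042), but not with any 1 library left out.

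Stc2, a secreted inhibitor of the protease that cleaves Igfbp4, had the opposite order of siRNAs. It was at 183.7, 157.1, 53.1 and 50.8 FPKM in siCtrl and at 126.1, 41.1, 28.5 and 32.5 FPKM in siKlf5 on days 0, 1, 2 and 3, lower in siKlf5 on every day. The log2 ratio was -0.54 on day 0 (95% interval -1.005 to -0.090), short of the cutoff, and -1.93 on day 1 (-2.82 to -1.13). It was -0.90 on day 2 (-1.79 to -0.08) and -0.64 on day 3 (-1.58 to 0.25), the last with an interval that includes 0. The difference over the 4 days was -1.003 (SE 0.23, unadjusted p = 0.0025, limma adjusted p = 0.26) and was not called, while the fall from day 0 to day 3 was (-1.90, SE 0.33, limma adjusted p = 0.0037). Igf2bp2, which binds Igf2 mRNA, fell too (-0.85, limma adjusted p = 0.0038). Ins2 was listed at 0 on day 0 and had 16 reads in siCtrl and 26 in siKlf5 on day 3 (limma adjusted p = 0.012). It reached a mean of 1 FPKM only through the later days, so this p-value is no separate support for a rise. Its day 3 to day 0 counting intervals included 0 with both siRNAs.

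**Figure D5:**
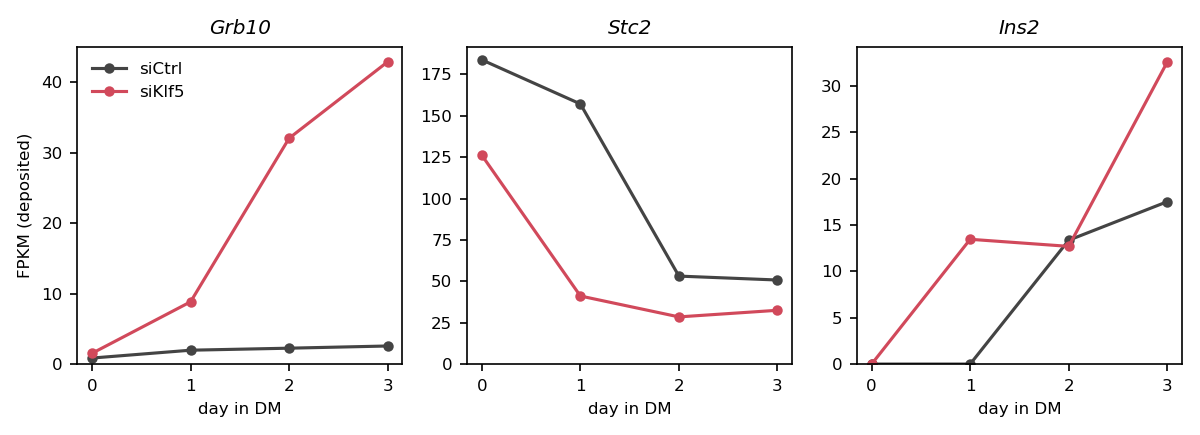
Deposited FPKM of Grb10, Stc2 and Ins2 against the day in DM, each axis starting at 0, with siCtrl in grey and siKlf5 in red, 1 library per point. Grb10 is at most 2.57 FPKM in siCtrl and reaches 42.9 in siKlf5, Stc2 is lower in siKlf5 on every day, and Ins2 is at 0 on day 0.

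Of the signalling list, Inppl1, a lipid phosphatase (0.75, SE 0.13, limma adjusted p = 0.0032), and Akt2, a kinase downstream of the receptor (0.95, SE 0.11, limma adjusted p = 0.00050), were the other genes called higher on day 3. Grb14, a relative of Grb10, and Inpp5d, a lipid phosphatase, were past 1.5-fold lower in siKlf5 on 3 days each but on few reads. Inpp5d had 0, 7, 81 and 43 reads in siCtrl and 7, 0, 6 and 3 in siKlf5 on days 0, 1, 2 and 3. In the mTOR list, the inhibitor Deptor rose by 1.41 (SE 0.23, limma adjusted p = 0.0027), Sesn1, another inhibitor, by 0.97 (SE 0.16, limma adjusted p = 0.0034), and the mTORC1 subunit Rptor by 0.60 (SE 0.12, limma adjusted p = 0.0080). Sesn2 fell by 1.95 (SE 0.26, limma adjusted p = 0.0012). The translation repressor Eif4ebp1 (-0.83, SE 0.14, limma adjusted p = 0.0030) and its partner Eif4e, which binds the mRNA cap (-0.73, SE 0.10, limma adjusted p = 0.0016), fell together. With each of the 8 libraries left out in turn, Akt2, Eif4e and Sesn2 were called in all 8 fits, Ins2 was called in 2, Grb10 in 0 and the other called list genes named here in 4 to 6. The differences of the 6 mTOR list genes between the siRNAs over the 4 days ran from -0.19 (Deptor) to 0.22 (Sesn1).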

How the data were processed

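Poly(A) RNA of C2C12 cells was measured in 8 libraries, 1 per siRNA and day. 6 ChIP samples were left out. Paired-end reads were mapped to mm9 (STAR), and HOMER summed them on RefSeq exons irrespective of strand, keeping at most 3 reads per position and 1 transcript per gene. The deposited FPKM values were normalised by the authors to a matrix total of 1e+07. Versions for these RNA-seq steps are not given in the sources used here. 8 log2 columns of the table, derived from the same reads, were not used because 1 carries no day in its name.

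Reads were recovered as FPKM times length divided by the step of 1 read, and in each library all of the 3886 to 4300 values of up to 60 reads came within 0.1 of whole reads. Whole reads were then used only for depth and intervals, in units of 6 reads, since reads came in groups. Ratios were taken of FPKM + 0.1, which understates changes of low values, and 1.5-fold was the cutoff. limma (3.58.1, R 4.3.3, with trend) was fitted over all transcripts with a mean of at least 1, with terms for day and siRNA, and with a slope of the siRNA difference over the days. In simulated data for the siRNA difference (14251 transcripts, 200 of them changed) it recovered 68% of 2-fold and 92% of 4-fold changes. On the 8 libraries the siRNA difference had 9 calls of 14312 transcripts, and 0 with any 1 day left out. The share of changes recovered in these libraries was not tested. The 68% and 92% therefore give no measure for members that were not called. A count model on recovered reads was not run because reads were capped and grouped.

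The genes named were the members, Klf5, list genes past 1.5-fold in 1 direction on at least 3 days or called by limma (up to 6 per list), the imprinted neighbours, and the 3 transcripts most like each member. The members and lists were chosen with earlier results of these data known. Pseudocounts, scalings, filters, cutoffs and leaving out days were the alternatives, and leaving out single libraries was added after seeing the data. Promoters and miRNAs came from RefSeq, gene models from GENCODE vM1. Protein sequences were not used here. Python 3.11.15 with scipy 1.17.1 was used.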

Additional observations from a re-analysis of the deposited data

Results flagged for a closer look

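2 genes had opposite changes in the 2 siRNAs or on different days, each past 1.5-fold and on more than 3 reads in every library compared. With 1 library each, neither contrast could be tested directly. Igf1 went up from day 2 to day 3 in siCtrl (log2 ratio 2.15, 6 to 17 reads) and down in siKlf5 (-0.72, 27 to 15 reads), and both 95% intervals include 0. Grb14 was lower in siKlf5 on days 0, 1 and 2 (log2 ratios -0.99, -1.70 and -1.66) and higher on day 3 (0.72), on 8 to 45 reads per library, and all 4 intervals include 0. From day 2 to day 3 Grb14 went down in siCtrl (-1.06) and up in siKlf5 (1.33). Its siRNA difference changed by 0.52 per day (SE 0.52, limma adjusted p = 1.00).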

How the results depend on the processing

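The libraries carry no replicate numbers, and the siRNAs were compared within days, the day being a term of each fit. Of the member log2 ratios of siKlf5 to siCtrl per day, all moved by no more than the longer arm of their counting interval under other pseudocounts and scalings. For Igf1 this says little, since its interval was unbounded on day 0 and ran from -8.50 to 16.8 on day 1. For day 3 against day 0, H19 moved to 1.33 and 1.34 in siCtrl and 1.15 and 1.14 in siKlf5, and Igfbp5 to -0.29 and -0.27, and 0.02 and 0.01, with upper-quartile scaling and median-ratio centring. Members past the cutoff on day 1 were 1 with a mean of at least 5 and 0 with a 2-fold cutoff, against 2, and in siCtrl from day 0 to day 3 they were 4 with a 2-fold cutoff, against 7. Transcripts past the cutoff in siKlf5 against siCtrl on days 0, 2 and 3 were 2914, 2957 and 3328, and became 5018, 5254 and 5422 without the filter and 1744, 1689 and 2061 with a mean of at least 5. With a 2-fold cutoff they were 1761, 2224 (3917 before), 1666 and 1962 on days 0 to 3, and from day 0 to day 3 they were 4035 in siCtrl (6580) and 3913 in siKlf5 (6486). The siRNA difference had 9 calls, and 0 without the filter and 0 to 0 with 1 day left out, in which 980 to 1147 transcripts had an unadjusted p under 0.05. Klf5 kept its direction there, with adjusted p of 0.30 to 0.69. Day 3 against day 0 had 4347 calls with 7 members, 2161 with 2 members without the filter, and 1512 to 4234 calls with 2 to 7 members when 1 library was left out, fewest without siCtrl day 3. Such a fit keeps 1 library on that day, which is assumed to vary like those of the other days. The change per day had 0 calls in each of 10 fits, and 694 transcripts had an unadjusted p under 0.05. The cause of these changes was not tested. Depth limits Igf1, Grb14, Inpp5d and Ins2, which had under 100 reads in each library.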

Other observations

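Igfbp7, which binds insulin-like growth factors only weakly and is no member of the set described above, was the binding protein with the largest difference between the siRNAs over the 4 days apart from Igfbp3. It was at 440.2, 306.9, 496.4 and 550.1 FPKM in siCtrl and at 454.7, 580.0, 796.3 and 707.8 FPKM in siKlf5 on days 0, 1, 2 and 3. Its log2 difference was 0.50 (SE 0.13, unadjusted p = 0.0057, limma adjusted p = 0.32), so it was not called. Igfbp1, 3.55 kb from Igfbp3, was listed at 0 in all 8 libraries. Airn, the antisense RNA that overlaps Igf2r by 28354 bases without sharing an exon, was at 1.91 to 24.1 FPKM (4 to 95 reads), and its value was highest in siCtrl day 2, as was that of Igf2r. The antisense transcript Igf2os was at most 1.94 FPKM. Both strands were counted together, so reads of overlapping genes cannot be told apart by strand.

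Over the 8 libraries, which share days and depths, the transcripts most like each member of 11591 with a mean of at least 10 FPKM were named by Pearson r, as a description. For Igf2 they were Iffo1 (0.998), Mir6923 (0.996) and Myh3 (0.995), and for H19 Mir675 (0.992), Fbxo18 (0.984) and Rab5a (0.983). Those for Igfbp4 were Mcu (0.998), 4933426M11Rik (0.996) and Chrd (0.994). Those for Igfbp5 were the abundant Hspa8 (0.989), Hsp90ab1 (0.983) and Rn45s (0.970). For Igf1r, Igf2r, Igfbp2, Igfbp3 and Igfbp6 the closest were Scn10a (0.989), Dync2li1 (0.972), C1galt1 (0.989), Atxn7l3b (0.968) and Nrde2 (0.945). Among the members, Igf1r and Igfbp4 were the most alike (r = 0.946) and Igfbp2 and Igfbp4 the most opposed (r = -0.893). Igf2 and H19 had r = 0.893.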
